A study of Mus musculus with 2 samples.

Results

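The cells described here are T cells with transcripts of Il1rl1, which encodes ST2, the receptor for interleukin-33, split by the hashtag antibody they carried. Hashtags 1 and 2 were set against hashtags 3 and 4, with ratios taken as hashtag 1 to 3 and hashtag 2 to 4. A barcode was a member when it had at least 500 genes, under 10% mitochondrial UMIs (unique molecular identifiers, 1 per captured transcript), a top tag with at least 10 counts and at least 80% of the counts of the 6 tags in use, at least 2 UMIs over Cd3e, Cd3d, Cd3g and Trac, and at least 1 UMI of Il1rl1. Members were thus selected on their UMIs of Il1rl1 and of the T cell genes, and these counts are no finding. Of 22960 barcodes, 2175 (9.47%) were members, 696, 570, 389 and 520 of them in hashtags 1 to 4. The grouping of the hashtags was chosen with expression values of these cells known, so all differences between hashtags are descriptions, and no test was run on them.

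The study used Foxp3.Cre-YFP mice on the C57BL/6 strain, in which Cre recombinase is made in Foxp3-expressing cells, and sorted CD4+ T cells from their spleen and visceral adipose tissue. The mice were Treg-bmal1WT or Treg-bmal1KO, kept on a reversed light cycle, and were sampled at ZT0 or ZT12, where ZT (zeitgeber time) counts hours from lights on. Per the design text the cells of each combination were tagged apart, with hashtag antibodies, and run together as 10x Genomics 3′ single-cell libraries. The labels name 2 genotypes, 2 times and 2 tissues, which make 8 combinations, but only 6 tags were in use, with 7 to 278 counts for each of the other 4 listed. The number of mice behind a hashtag was not given in the sources used here. The tags are named by number, so the tissue, genotype and time of hashtags 1 to 4 are unknown, each hashtag is 1 sample, and differences between mice cannot be told apart from differences between conditions.

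ST2-positive regulatory T cells (Tregs) are the main Treg population of visceral fat in mice. Interleukin-33 made by stromal cells of the fat signals through ST2 and keeps these cells in number, and they are known for Gata3, Pparg, Klrg1, the growth factor amphiregulin and the cytokine interleukin-10. Bmal1, encoded by Arntl, pairs with Clock to drive the period, cryptochrome and Rev-erb genes, which feed back on it and keep a daily rhythm.

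The hashtags are what separates the groups, and the 4 tag sequences compared are shown for that reason, with all bases in capitals because the whole tag is read.
Hash1: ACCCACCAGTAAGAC
Hash2: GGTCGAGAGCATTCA
Hash3: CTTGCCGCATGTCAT
Hash4: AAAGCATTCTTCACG
These 4 tags differed from each other at 11 to 13 of 15 positions, so that no single misread base turns a tag into another. Among barcodes that passed the gene and mitochondrial limits, 6633 of 21231 (31.2%) had a top tag under 80% and were left out, while pairs of cells with the same tag stay in.

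Median depth was alike across the hashtags, while totals and the number of deep barcodes were not. The median member had 3401.5, 3469, 3492 and 3227.5 UMIs in hashtags 1 to 4, and the summed totals were 2963539, 2571268, 1765314 and 2052498 UMIs. Barcodes over 10000 UMIs numbered 38, 39, 16 and 20. Members made up 26.9% of the T cells of hashtag 1 (exact 95% interval 25.2 to 28.7), 39.8% in hashtag 2 (37.3 to 42.4), 23.6% in hashtag 3 (21.6 to 25.7) and 44.0% in hashtag 4 (41.1 to 46.9). The share therefore divided hashtags 2 and 4 from 1 and 3, not 1 and 2 from 3 and 4. In hashtags 5 and 6 it was 4.44% and 4.22%. Intervals here and below cover counting error only.

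The label was checked against markers. The marker sum was taken over Foxp3, the defining Treg factor, Il2ra, Ikzf2 and Ctla4. A sum of at least 2 UMIs was found in 78.6%, 84.0%, 75.8% and 82.5% of members of hashtags 1 to 4. In T cells with no Il1rl1 UMI it was found in 37.0%, 31.8%, 30.9% and 30.7%, at a median depth of 2568 to 2710 UMIs. A Foxp3 UMI was found in 18.1%, 15.8%, 18.3% and 15% of members. In T cells with no Il1rl1 UMI the Foxp3 shares were 4.61%, 5.34%, 4.21% and 4.08%. Of 2139 naive-type T cells of hashtags 5 and 6, which should lack Foxp3, 0.468% (0.224 to 0.858) had a UMI of it. Their median depth was 3886 UMIs. These cells were chosen to have no UMI of Ikzf2, Il2ra, Ctla4 or Klrg1, which lowers their Foxp3 share beforehand. By this marker sum most but not all members were Treg-like. Cells with a UMI of the type 2 helper cytokines Il4, Il5 or Il13 made up 8.19%, 8.77%, 6.43% and 8.85% of members. Their shares were lower in T cells with no Il1rl1 UMI, at 1.059%, 1.045%, 0.874% and 1.964% in hashtags 1 to 4. Members were thus richer in cells with these cytokines as well as in Treg-like cells. Whether the members with these cytokines lacked the Treg markers was not tested. Ptgdr2, a marker of type 2 innate lymphoid and helper cells, had no UMI in any member. It was nearly absent from T cells with no Il1rl1 UMI as well, with 1, 0, 0 and 1 cells in hashtags 1 to 4. Calca, a further marker planned for these cell types, was found in 2.87%, 3.16%, 2.83% and 2.31% of members. In T cells with no Il1rl1 UMI the Calca shares were 0.741%, 0.465%, 0.477% and 0.604%.

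Il1rl1 was also read in 4.11% (3.31 to 5.04) of the naive-type T cells above. Members with exactly 1 Il1rl1 UMI numbered 279, 182, 163 and 183 in hashtags 1 to 4, and 417, 388, 226 and 337 had 2 or more. Just outside the limit lay 4670 T cells of these hashtags with no Il1rl1 UMI. The level of Il1rl1 itself was 591, 649, 538 and 674 CPM (UMIs of a gene per 1000000 UMIs of the summed members), and the groups overlapped.

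At the scale of the whole transcriptome the hashtags were close to each other. Of 4276 genes with a mean of at least 30 CPM, 4053 (94.8%) lay within 1.5-fold in both pairs. At least 1.5-fold higher in hashtags 1 and 2 in both pairs were 18 genes (0.421%), and 5 genes (0.117%) were lower by as much, while 11 (0.257%) passed that fold in opposite directions in the pairs. Across genes, which are not independent replicates, Pearson's correlation of the 2 ratios was 0.163.

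Most of the genes with large ratios were genes of other cell types, held by few barcodes. Transcripts of another lineage (macrophage, B or plasma cell, stromal or endothelial, mast cell, erythroid or adipocyte) marked 46 of the 2175 members, 19, 12, 8 and 7 of them in hashtags 1 to 4. These 46 carried 6.25% of the members' UMIs, with a median of 9268.5 UMIs against 3365 in the other members. They had passed the T cell and Il1rl1 limits, and cells caught together with a T cell were not told apart from a T cell in another state.

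Among macrophage genes, the lysozyme gene Lyz2 stood at 324, 149, 17.0 and 41.9 CPM in hashtags 1 to 4, highest in hashtag 1, with no overlap between the groups. A single barcode held 639 of the 959 Lyz2 UMIs of hashtag 1, and the share of cells with any Lyz2 UMI was 7.33%, 6.84%, 7.20% and 5.77%. Without the 46 barcodes its level was 16.1, 13.6, 17.8 and 14.1 CPM, and the groups overlapped. The antigen presentation genes H2-Ab1, H2-Aa, H2-Eb1 and Cd74, the complement genes C1qa, C1qb and C1qc, and Fcer1g, Tyrobp, Ccl6 and Pf4 were past the fold in the same direction with all members. Without the 46 barcodes none of them was called. H2-Ab1 then stood at 20.5, 20.2, 12.7 and 13.1 CPM, under the 30 CPM needed, and kept ratios of 0.66 and 0.61. Of 12 macrophage and dendritic genes measured, 10 were past the fold, all higher in hashtags 1 and 2, with a median log2 ratio of 2.15. Without the 46 barcodes, 3 were measured, none was past the fold and the median was -0.04, which the removal of barcodes by such genes largely fixes. With only the 3 leading barcodes of each gene left out in each hashtag, Cd74 kept ratios of 1.85 and 0.76, and H2-Ab1 ratios of 2.17 and 1.13.

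In the opposite direction stood Mcpt4 and Cma1, proteases of connective tissue mast cells. Mcpt4 was at 2.02, 1.94, 166 and 93.1 CPM. A single barcode held 290 of 293 Mcpt4 UMIs in hashtag 3, and another held all 191 in hashtag 4. Cma1 followed, with 142 of 144 UMIs and 109 of 109 UMIs in single barcodes of hashtags 3 and 4. The collagen gene Col3a1, at 4.72, 13.6, 194 and 8.77 CPM, likewise rested on a barcode of hashtag 3 with 295 of its 342 UMIs. The summed level of the whole macrophage and dendritic list was 2277, 1839, 691 and 821 CPM with all members and 490, 536, 498 and 558 CPM without the 46 barcodes.

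**Figure D1:**
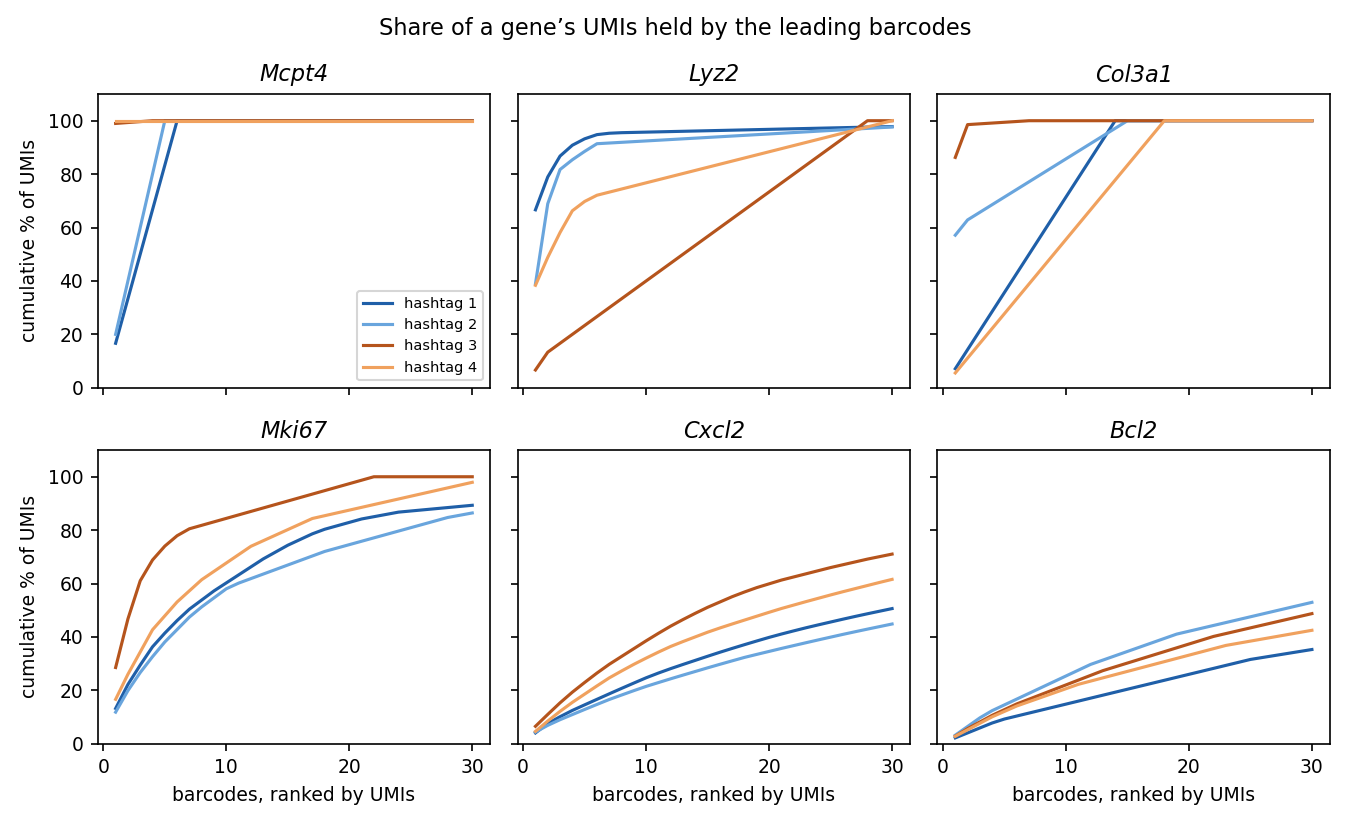
Cumulative percent of a gene's UMIs (vertical axis) held by the member barcodes with most of them (horizontal axis, ranked within each hashtag). A few barcodes hold most Lyz2 UMIs in hashtags 1 and 2 and nearly all Mcpt4 UMIs in hashtags 3 and 4, while for Cxcl2 and Bcl2 the 30 leading barcodes of a hashtag held at most 71% of the UMIs.

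Without the 46 barcodes, 12 of 4234 genes (0.283%) were past the fold higher in hashtags 1 and 2, 2 (0.0472%) were lower and 2 (0.0472%) went in opposite directions. Of the 14 genes with a shared direction (0.331%), 6 were also among those called with all members. Higher were Cxcl2, Cxcl10, the mitochondrial transfer RNA gene mt-Tc, and the cell cycle genes Mki67, Birc5, Cks1b, Ube2c, Pclaf, Prc1, Rrm1 and Tipin with the histone gene H2bc4. Lower were Bcl2 and Csf2. The removal of these barcodes was chosen after the values had been seen.

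**Figure D2:**
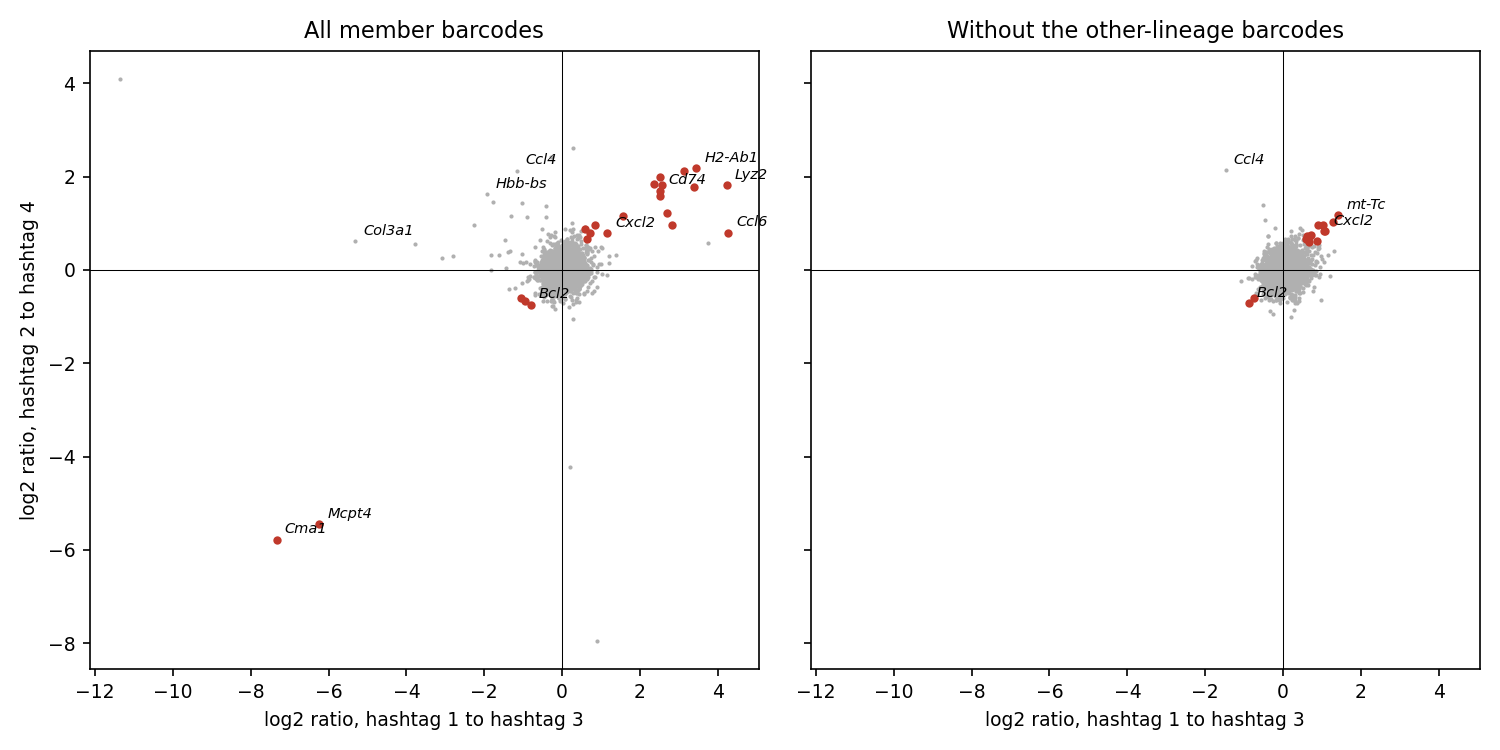
Log2 ratio of hashtag 1 to 3 (horizontal) against hashtag 2 to 4 (vertical) for each gene with at least 30 CPM, with red points at least 1.5-fold apart in the same direction in both pairs. With all 2175 members (left) red points reach the mast cell genes Mcpt4 and Cma1, and without the 46 barcodes (right) 14 red points remain near the centre; the far grey points at left include Ccl21a, Igha and Iglc3.

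Among ligands, Cxcl2 encodes a chemokine that draws neutrophils. Its level was 1079 CPM in hashtag 1 (1042 to 1118), 2031 in hashtag 2 (1976 to 2087), 483 in hashtag 3 (451 to 517) and 1170 in hashtag 4 (1124 to 1218). Hashtag 2 was highest and hashtag 3 lowest, and hashtags 1 and 4 lay side by side, so the groups overlapped although each pair differed. The log2 ratio was 1.16 (1.05 to 1.27) for hashtag 1 to 3 and 0.80 (0.73 to 0.87) for 2 to 4. A Cxcl2 UMI was found in 38.5%, 47.5%, 31.6% and 36.0% of members, against 7.62% (6.53 to 8.83) of the naive-type T cells. With each cell thinned to 2000 UMIs the shares were 31.3%, 44.2%, 25.6% and 30.3%, against 3.98% in the naive-type cells. T cells with no Il1rl1 UMI had 79.5, 168, 56.8 and 119 CPM, ratios of 0.48 and 0.50, below the fold. Cxcl2 was past the fold in 13 of 13 other settings of the cell rule, scaling and depth.

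The region upstream of Cxcl2 is shown because Cxcl2 is the chemokine that kept its difference, and it holds a match to a motif of NF-kappaB, a factor family that interleukin-33 is known to activate. The sequence covers 250 bases before the annotated start at chr5:90903649-90903898 (plus strand, GRCm38.p6, from RefSeq), with capitals on the match to GGGA, any base, then TTTCC, searched on both strands.
Cxcl2: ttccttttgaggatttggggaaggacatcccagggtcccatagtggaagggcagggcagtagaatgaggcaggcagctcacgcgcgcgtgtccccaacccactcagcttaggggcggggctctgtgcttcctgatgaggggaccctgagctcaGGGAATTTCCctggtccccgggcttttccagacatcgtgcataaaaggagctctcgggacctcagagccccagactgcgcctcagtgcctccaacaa
The motif is in 0.356% of 32851 such windows (117 of them). The match is a description of the sequence, not a measured site. Of 14 genes of NF-kappaB and its feedback measured, none was past the fold, 3 were higher in both pairs and 1 lower. Over all genes 27.7% were higher and 26.5% lower. The median log2 ratio of this list was 0.32 for hashtag 1 to 3 and -0.06 for 2 to 4. A link of the motif to the Cxcl2 difference was not tested.

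Of 12 cytokines and effectors measured, 3 were higher in both pairs and 3 lower, with a median of -0.03. These shares were near the 27.7% and 26.5% of all genes, so the list did not lean one way. Il10, which encodes the anti-inflammatory interleukin-10, was at 154 (140 to 169), 200 (183 to 218), 86.1 (73.0 to 101) and 141 (125 to 159) CPM. Hashtags 1 and 2 were both above 3 and 4, the closest being hashtag 1 and hashtag 4, whose intervals overlapped. The log2 ratios of Il10 were 0.83 and 0.50. Areg, which encodes amphiregulin, a tissue repair factor, was at 1309, 1612, 740 and 1313 CPM, with ratios of 0.82 and 0.30, and hashtag 4 was level with hashtag 1. Mmp9, a matrix-degrading enzyme, stood at 66.8, 183, 43.1 and 115 CPM, past the fold with all members (0.63 and 0.67) and not without the 46 barcodes (0.54 and 0.68).

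Of the genes known for adipose Tregs, 24 were measured, 17 were higher in hashtags 1 and 2 in both pairs by any amount and 1 was lower, with a median log2 ratio of 0.19. Over all genes 27.7% were higher in both pairs and 26.5% lower, with a median of 0.00. Only Cxcl2 of these 24 was past the fold. Klrg1, an inhibitory receptor of late effector cells, was at 549, 670, 462 and 542 CPM (ratios 0.25 and 0.31). Hashtags 1 and 4 were nearly level, so the groups were barely apart. A Klrg1 UMI was found in 69.5%, 81.9%, 66.6% and 73.3% of members, and by this share the groups overlapped. Cxcr6, a chemokine receptor of tissue T cells, was at 569, 652, 440 and 544 CPM (0.37 and 0.26). Gata3, a transcription factor of ST2 cells, was at 585, 644, 472 and 632 CPM (0.31 and 0.03), with no difference in the second pair. In T cells with no Il1rl1 UMI, 12 of 20 measured genes of this list were higher in both pairs and the median was 0.20, where 45.1% of all genes were higher and the median of all genes was 0.07.

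**Figure D3:**
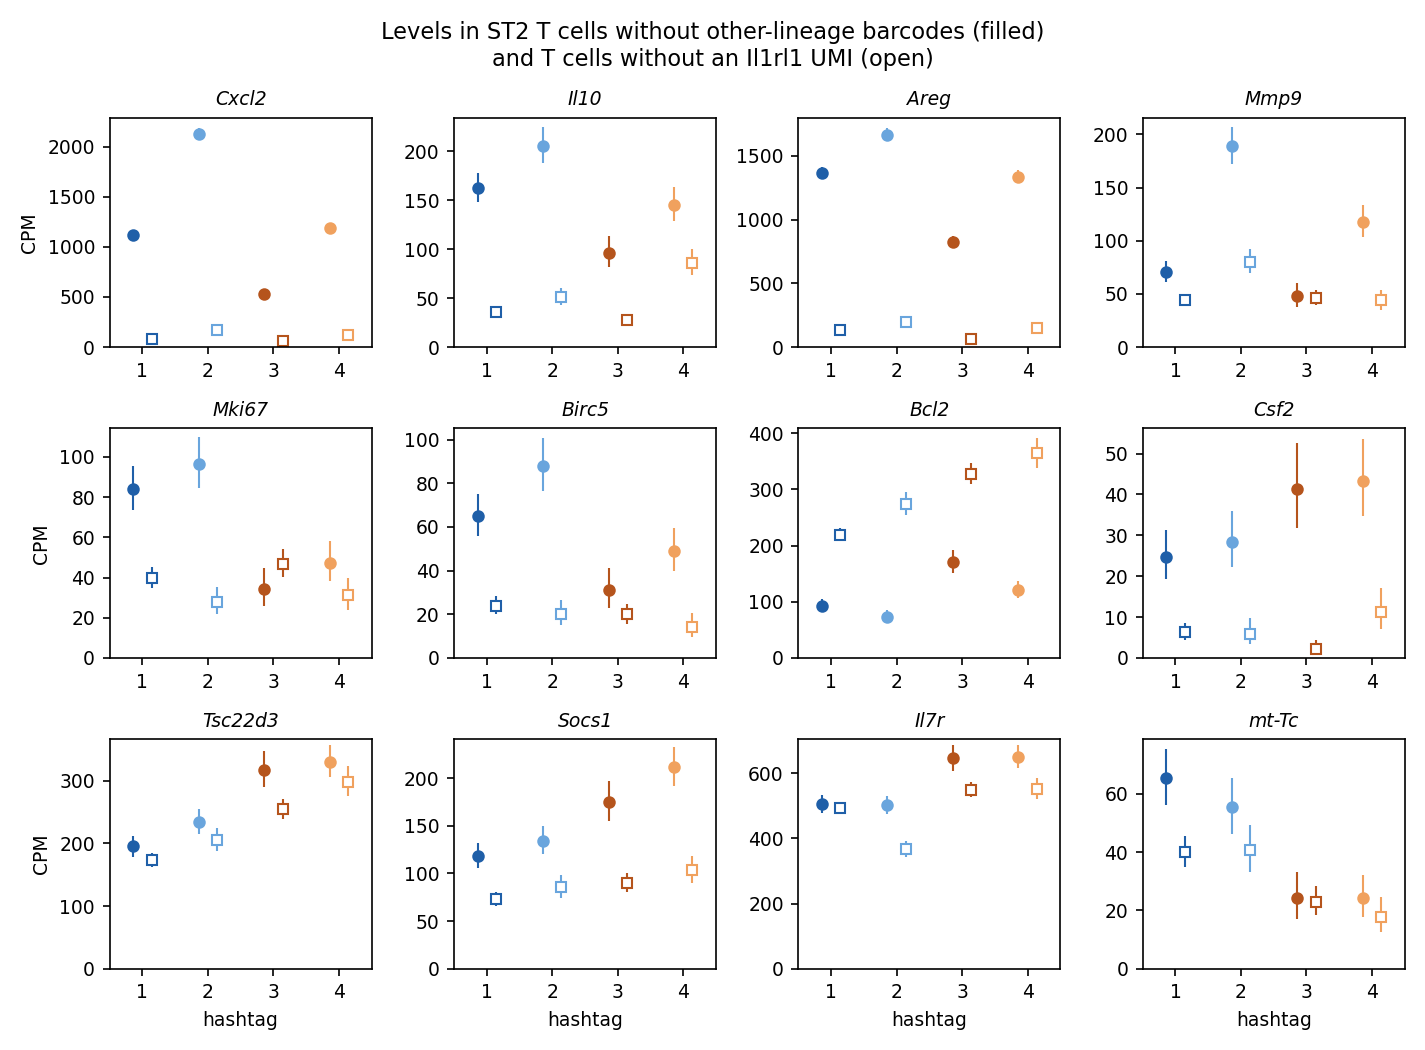
CPM (vertical axis) in hashtags 1 to 4 for members without the 46 other-lineage barcodes (filled circles) and for T cells with no Il1rl1 UMI (open squares), with exact 95% Poisson bars. Cxcl2, Mki67 and mt-Tc are higher in members of hashtags 1 and 2 than in the paired hashtag, and Bcl2, Tsc22d3 and Socs1 are lower.

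Of the proliferation genes, Mki67 and Birc5 were past the fold with all members. Mki67, which marks dividing cells, was at 79.0 (69.2 to 89.8), 91.8 (80.4 to 104), 43.6 (34.4 to 54.5) and 46.8 (37.9 to 57.1) CPM. Both hashtags 1 and 2 lay above 3 and 4, with log2 ratios of 0.85 (0.48 to 1.25) and 0.97 (0.62 to 1.33). Birc5, which encodes the mitotic protein survivin, was at 61.1, 82.8, 36.8 and 47.7 CPM, again with no overlap and ratios of 0.72 and 0.79, past the fold in 8 of 13 other settings. Among T cells with no Il1rl1 UMI, Mki67 was at 39.7, 28.0, 46.8 and 31.1 CPM, with ratios of -0.24 and -0.15.

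Of 22 proliferation genes listed, 15 were measured, 8 were higher in hashtags 1 and 2 in both pairs and 3 lower, and the median log2 ratio was 0.20. Without the 46 barcodes 11 of 15 were higher and 3 lower, with a median of 0.36, where 30.8% of all genes were higher and the median of all genes was 0.01. Across 13 other settings the median of the proliferation list ran from -0.02 to 0.51 and moved in 6, so the lean of the list depended on the setting. Top2a, which untangles replicated DNA, was at 79.3, 103, 83.3 and 74.1 CPM (ratios -0.07 and 0.48), so the first pair did not follow. Pclaf, a replication factor, passed the fold only without the 46 barcodes: 53 of its 114 UMIs in hashtag 3 came from a single barcode, and its ratios moved from -0.11 and 0.60 to 0.71 and 0.74. Rrm1, a subunit of the enzyme that makes DNA precursors, moved from 0.07 and 0.87 to 1.02 and 0.96, with 34 of 66 UMIs of hashtag 3 in a single barcode.

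Few cells held these transcripts: the 30 leading barcodes held 89.3%, 86.4%, 100% and 97.9% of Mki67 UMIs in hashtags 1 to 4. Cells with at least 3 UMIs over Mki67, Top2a, Birc5, Cdk1, Ccna2, Rrm2 and Tyms numbered 36 of 696 in hashtag 1 (5.17%, 3.65 to 7.09), 37 of 570 in hashtag 2 (6.49%, 4.61 to 8.84), 14 of 389 in hashtag 3 (3.60%, 1.98 to 5.96) and 22 of 520 in hashtag 4 (4.23%, 2.67 to 6.34). The shares were higher in hashtags 1 and 2, all 4 counting intervals overlapped, and the difference was not tested. Their median depth was 11301.5, 11842, 10268 and 7904.5 UMIs, against 3167 to 3435 in the other members. Without the barcodes over 10000 UMIs Mki67 was not called, while its mean log2 ratio was 0.97, against 0.91 with all members. Among T cells with no Il1rl1 UMI the same rule found 2.44%, 1.74%, 2.07% and 1.21%.

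The cell cycle genes move together within a dividing cell, and the upstream regions of Mki67 and Ube2c, the ubiquitin-conjugating enzyme that mitosis needs, are shown for the motifs they share with others of the group. Capitals mark CCAAT, the letters bound by the factor NF-Y, and TTTGAA, known as the cell cycle homology region, each searched on both strands in the 250 bases before the start (GRCm38.p6, RefSeq). Mki67 is at chr7:135716380-135716629 on the minus strand and Ube2c at chr2:164769679-164769928 on the plus strand.
Mki67: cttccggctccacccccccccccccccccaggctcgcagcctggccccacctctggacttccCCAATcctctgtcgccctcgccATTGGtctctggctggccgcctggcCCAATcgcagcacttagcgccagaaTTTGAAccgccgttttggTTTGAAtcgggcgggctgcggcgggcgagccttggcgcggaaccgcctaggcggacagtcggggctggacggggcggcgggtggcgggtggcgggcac
Ube2c: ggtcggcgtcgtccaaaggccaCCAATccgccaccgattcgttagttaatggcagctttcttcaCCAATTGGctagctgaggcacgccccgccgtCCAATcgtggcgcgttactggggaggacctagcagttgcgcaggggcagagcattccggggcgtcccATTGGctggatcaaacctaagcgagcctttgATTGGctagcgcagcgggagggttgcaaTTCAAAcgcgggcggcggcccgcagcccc
Of the 9 genes (Birc5, Cks1b, H2bc4, Mki67, Pclaf, Prc1, Rrm1, Tipin and Ube2c), 7 had an entry. CCAAT was in 6 of these 7 and in 33.8% of all 32851 windows, and TTTGAA was in 4 of 7 and in 16% of all. A gene counted when any of its windows had a match, while the shares of all are of single windows, so they are not strictly alike. Mki67 had 3 CCAAT and 2 TTTGAA matches, and Ube2c had 6 and 1.

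Bcl2, which protects cells from death, was lower in hashtags 1 and 2. Its level was 90.8 (80.2 to 102), 71.9 (62.0 to 83.1), 159 (141 to 179) and 120 (106 to 136) CPM, with no overlap between the groups. The log2 ratios were -0.81 (-1.06 to -0.56) and -0.74 (-1.02 to -0.46), and a Bcl2 UMI was found in 24.1%, 18.4%, 33.4% and 28.1% of members. The call was kept in 12 of 13 other settings and not among members with at least 2 UMIs of the Treg markers, where the mean log2 ratio was -0.63. T cells with no Il1rl1 UMI had more Bcl2, at 220, 275, 328 and 365 CPM, and leaned the same way (-0.58 and -0.41). Of 19 survival and p53 genes measured, 9 were higher in both pairs and 4 lower, with a median of 0.06, where 27.7% of all genes were higher and 26.5% lower.

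Csf2, which encodes the growth factor GM-CSF, was at 24, 26.8, 46.5 and 42.4 CPM, with ratios of -0.95 and -0.66. Its share of cells did not follow: 3.88%, 5.61%, 5.40% and 4.23% of members had a UMI. Without members that held Il4, Il5 or Il13 the mean log2 ratio was 0.40, in the other direction. A single barcode of hashtag 4 held 32 of its 87 UMIs, and without the 3 leading barcodes of each hashtag the ratios were -0.79 and 0.10. Csf2 was past the fold in 9 of 13 other settings, and not with each cell at equal weight or thinned to 2000 UMIs.

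Among genes known to respond to glucocorticoids, most leaned lower. Of 11 measured, 7 were lower in hashtags 1 and 2 in both pairs and 1 was higher, with a median log2 ratio of -0.30, where 26.5% of all genes were lower. Without the 46 barcodes 7 of 10 were lower, against 24.9% of all genes. Tsc22d3, which encodes the glucocorticoid-induced leucine zipper, was at 195 (180 to 212), 229 (211 to 249), 297 (272 to 323) and 328 (304 to 354) CPM. Hashtags 1 and 2 lay below 3 and 4 with no overlap, with ratios of -0.60 and -0.51. In T cells with no Il1rl1 UMI the ratios of Tsc22d3 were -0.55 and -0.54, so members and other T cells of the same hashtags had differences of like size.

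Fkbp5, a chaperone that limits the glucocorticoid receptor, was at 92.1, 83.2, 101 and 121 CPM (-0.14 and -0.54). Txnip, which binds thioredoxin and curbs glucose uptake, was at 300, 276, 376 and 334 CPM (-0.33 and -0.28). Klf9, a transcription factor, was past the fold with all members (24.6, 22.6, 51.5 and 34.1 CPM) and not without the 46 barcodes (-0.55 and -0.52). Nr3c1, the receptor itself, was at 152, 149, 131 and 133 CPM (0.21 and 0.17), the other way. Over the list the median in T cells with no Il1rl1 UMI was -0.14, where the median of all genes was 0.07. In those cells 6 of 11 measured genes were lower in both pairs and 3 higher, where 14.4% of all genes were lower and 45.1% higher.

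Among receptors and their feedback, Il7r, the interleukin-7 receptor chain, was at 486, 485, 587 and 641 CPM (-0.27 and -0.40). Socs1, an inhibitor of cytokine signalling, was at 114, 130, 160 and 207 CPM (-0.49 and -0.67), lower in hashtags 1 and 2 with no overlap. Socs3, of the same family, went the other way, at 45.2, 46.7, 29.5 and 32.2 CPM (0.61 and 0.53). Of 30 cytokine receptor and SOCS genes measured, none was past the fold, 8 were higher and 10 lower, near the 27.7% and 26.5% of all genes, with a median of 0.01. Zfp36l2, which encodes an RNA-binding protein that shortens messenger RNA life, was at 478, 439, 610 and 568 CPM in members (-0.35 and -0.37) and at 613, 711, 597 and 720 CPM in T cells with no Il1rl1 UMI (0.04 and -0.02).

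Among core Treg genes no shared direction was seen. Of 14 measured, 4 were higher and 4 lower in both pairs, near the shares over all genes (27.7% and 26.5%), with a median of -0.03 and none past the fold. Foxp3 was at 53, 40.8, 46.5 and 44.3 CPM, Ikzf2, which encodes Helios, at 709, 616, 709 and 709 CPM, and Ctla4, an inhibitory receptor, at 370, 397, 295 and 347 CPM. Il2ra, the high-affinity interleukin-2 receptor chain, was at 225, 310, 244 and 397 CPM, highest in hashtag 4. Lists for lipid uptake and storage (13 measured, median 0.26, and 0.18 without the 46 barcodes), fatty acid oxidation (15, -0.01) and nuclear oxidative phosphorylation (29, 0.03) had no gene past the fold. Of 83 cytosolic ribosomal protein genes, 64 were lower in both pairs, by a median of -0.06, and in T cells with no Il1rl1 UMI 75 of 83 were lower, by -0.14, where 14.4% of all genes were.

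**Figure D4:**
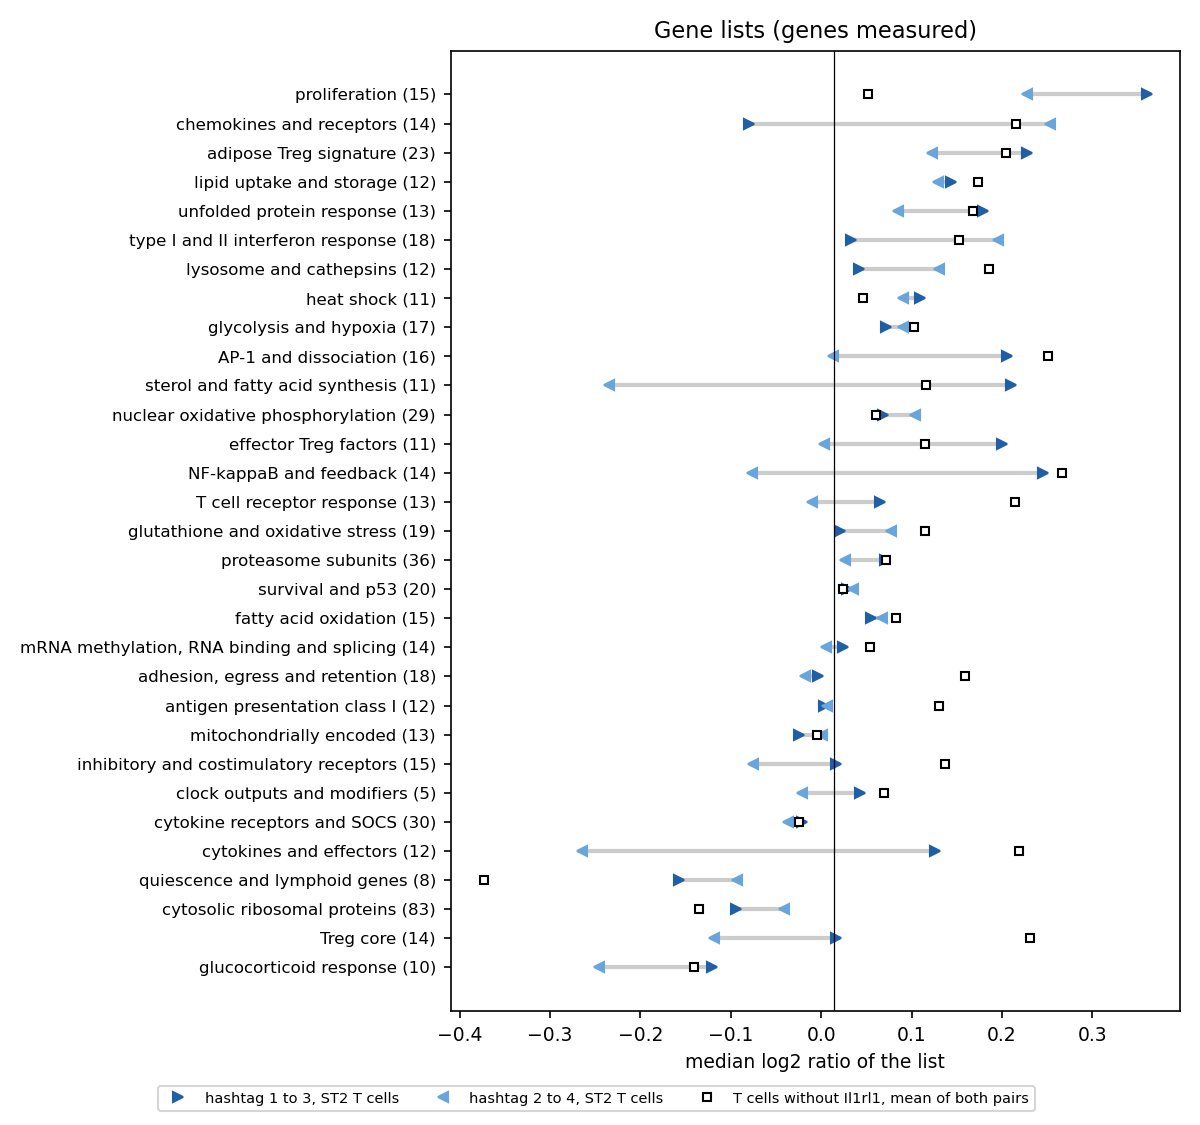
Median log2 ratio (horizontal axis) of each gene list with 5 or more genes measured, without the 46 other-lineage barcodes and without the lists of other cell types; right-pointing triangles are hashtag 1 to 3, left-pointing triangles hashtag 2 to 4, squares the mean of both pairs in T cells with no Il1rl1 UMI, and the vertical line the median of all genes. Proliferation lies to the right of the line in both pairs (0.36 and 0.23), and glucocorticoid response to the left in both (-0.12 and -0.25).

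The transfer RNA gene mt-Tc, read at low level by this 3′ method, was at 68.8 (59.7 to 79.0), 53.3 (44.7 to 63.0), 23.2 (16.7 to 31.5) and 23.9 (17.7 to 31.6) CPM. The groups did not overlap, the log2 ratios were 1.55 and 1.15, and the call was kept in 13 of 13 other settings. It was also past the fold in T cells with no Il1rl1 UMI, at 40.0, 40.7, 23 and 17.8 CPM. In those cells 7 of 4228 genes (0.166%) were higher past the fold, 3 (0.071%) lower and 18 (0.426%) in opposite directions, so that 10 (0.237%) shared a direction. The other mitochondrial genes stayed level: 13 were measured, mt-Tc alone was past the fold, and the list had a median of 0.01. The 7 genes higher in T cells with no Il1rl1 UMI were mt-Tc, Ccl4, Ifng, Igfbp6, Isg15, Retnla and Slpi, named after their values were seen.

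Among clock genes, Cry1, Npas2 and Nr1d2 differed between hashtags 1 and 3 on the one hand and 2 and 4 on the other, and the remaining clock genes named here did not all follow. Arntl, the targeted gene, was at 20.9 (16 to 26.8), 27.2 (21.2 to 34.4), 15.9 (10.5 to 22.9) and 27.3 (20.6 to 35.4) CPM, and every interval overlapped with that of its pair. Which part of Arntl the deletion removes was not given in the sources used here. A 3′ count need not show it. Cry1, a repressor of Bmal1 and Clock, was at 19.9, 49.0, 15.3 and 51.2 CPM (ratios 0.37 and -0.06). Npas2, a partner of Bmal1 in place of Clock, was at 2.02, 17.1, 1.13 and 18.5 CPM. Nr1d2, which encodes a Rev-erb repressor of Arntl, was at 19.9, 6.22, 30.6 and 4.38 CPM (-0.62 and 0.47).

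Dbp, a transcription factor that the clock drives directly, was at 20.2, 17.5, 36.3 and 20.5 CPM in members (-0.84 and -0.23), with hashtag 3 apart from the rest. Bhlhe40, a repressor that also responds to activation, was at 80.3, 41.2, 47.0 and 58.0 CPM (0.77 and -0.49), in opposite directions. Rora, an activator of Arntl and a gene of adipose Tregs, was level at 245, 264, 215 and 258 CPM. No clock gene at 30 CPM or more was past the fold in both pairs in the same direction, and Clock, Cry2, Per1, Hlf and Nfil3 at 5 CPM or more had no interval of a log2 ratio that left out 0. Per3 leaned lower in hashtags 1 and 2, with a mean log2 ratio of -1.84 to -0.51 across 13 other settings. That of Tef ran from -0.82 to -0.02 and that of Nr1d1 from -1.48 to 0.17. Counting intervals of these last genes are not given here.

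**Figure D5:**
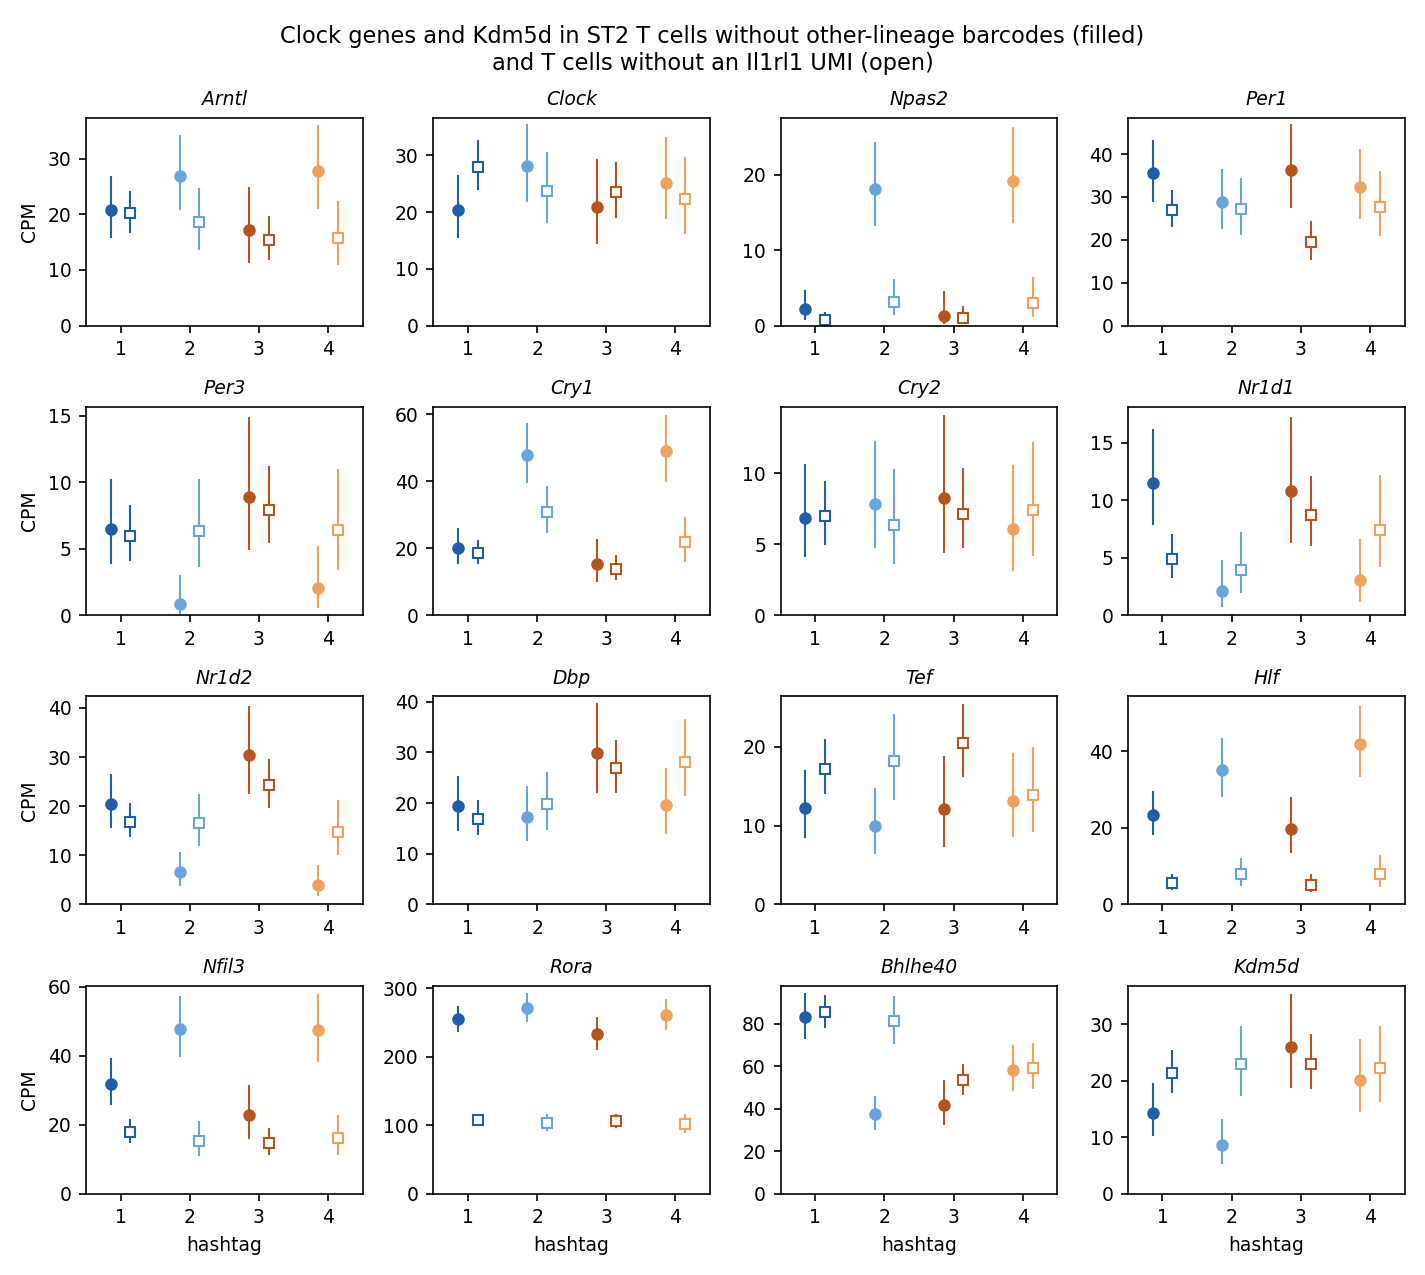
CPM (vertical axis) of clock genes and Kdm5d in hashtags 1 to 4, for members without the 46 other-lineage barcodes (filled circles) and T cells with no Il1rl1 UMI (open squares), with exact 95% Poisson bars. Npas2 and Cry1 are high and Nr1d2 low in members of hashtags 2 and 4, across the division between hashtags 1 and 2 and hashtags 3 and 4.

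Sex-linked transcripts were also read, and they could not check the tags because Y-linked genes were present in every hashtag. Xist had 1 UMI among all members, and the Y-linked Ddx3y, Eif2s3y and Uty were present in all 4 hashtags, Ddx3y at 65.1, 82.4, 80.4 and 69.2 CPM. Kdm5d, a Y-linked histone demethylase, had 43, 22, 41 and 41 UMIs in hashtags 1 to 4, found in 5.60%, 3.51%, 9.51% and 7.5% of members. Hashtags 1 and 2 were the lower ones, with ratios of -0.68 (-1.33 to -0.03) and -1.21 (-2.04 to -0.44). In T cells with no Il1rl1 UMI it stood level, at 21.4, 22.9, 23 and 22.2 CPM.

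Below the 30 CPM level, 3407 genes had a mean of 10 to 30 CPM in members without the other-lineage barcodes. At least 2-fold higher in hashtags 1 and 2 in both pairs were 2 of them (0.0587%), 6 (0.176%) were lower and 1 (0.0294%) went in opposite directions. The 8 with a shared direction were chosen after their values were seen. Higher were Aspm, a spindle gene (11.5, 20.6, 3.18 and 9.58 CPM in hashtags 1 to 4), and Siglec1, known as a macrophage adhesion receptor (35.5, 31.8, 16.5 and 11.6 CPM). The leading barcode of Siglec1 held 7 of 100 UMIs in hashtag 1, so it was spread over cells, and T cells with no Il1rl1 UMI had 37.6, 29.6, 15.6 and 25.2 CPM. Lower were Trat1, which encodes an adaptor of the T cell receptor complex (15.8, 7.02, 32.4 and 23.2 CPM), Hpgd, which breaks down prostaglandins (3.23, 7.84, 15.2 and 16.1 CPM), Prxl2a (16.1, 12.4, 35.6 and 29.7 CPM), Myo9a, Hs3st3b1 and C230096K16Rik. Hpgd was at 2.61, 1.98, 2.05 and 0.989 CPM in T cells with no Il1rl1 UMI.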

How the data were processed

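A gene expression library and a hashtag library (10x Genomics) were used, made with single cell 3′ chemistry v3.1 per the labels' protocols. Both files were deposited as whole-number counts, of UMIs for genes and of tags for the hashtags, without normalization. The matrix was written by cellranger 4.0.0, per the file headers. The submitters' processing notes list Cell Ranger 6.0 instead, with Seurat 3 and mm10. The hashtag counter was not given in the sources used here.

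UMIs were summed over members per hashtag and scaled to CPM, and log2 ratios used a prior count of 0.5 (pandas 2.3.3 and scipy 1.17.1 with numpy 2.4.6, under Python 3.11.15). Genes with a mean of at least 30 CPM were measured, and a gene counted as past the fold at 1.5-fold in both pairs. Intervals are exact at 95%: Poisson for levels, Clopper-Pearson for shares and for the split of UMIs behind a ratio. With 1 sample per hashtag there was no test. Groups were said not to overlap when both hashtags of one group lay above both of the other. The share of all genes with such a separation is not given here, so it is a description only. No doublet caller was run.

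Members and gene lists were chosen with earlier results of these data known. Named genes are up to 12 past the fold in each direction, up to 4 further members of each list, clock genes at 5 CPM or more, and sex-linked transcripts; others are named for their role. The 46 other-lineage barcodes, the 7-gene cell cycle rule, the naive-type cells (at least 2 UMIs of Ccr7 and Lef1, none of Ikzf2, Il2ra, Ctla4 or Klrg1) and leaving out the 3 leading barcodes of a gene were chosen after the data were seen. B-like barcodes, planned as background, numbered 7, too few to use. The ratios were tested on simulated data: of 200 genes changed 2-fold among 4276, 186 were recovered. The simulated counts varied by Poisson error around the summed level of a hashtag. They held no genes concentrated in single barcodes, so the recovery does not speak for calls that rest on few barcodes. T cell receptor variable genes and immunoglobulin genes were left out of the named genes.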

Additional observations from a re-analysis of the deposited data

Results flagged for a closer look

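Of the 11 genes whose pairs pointed in opposite directions past 1.5-fold, 6 are given here, and the difference between pairs was not tested. The log2 ratio of hashtag 1 to 3 minus that of 2 to 4 was -5.93 for Col3a1 (-5.31 and 0.62), -3.56 for Hbb-bs (-1.92 and 1.63), -3.23 for Hbb-bt (-1.77 and 1.46), -2.47 for Hba-a1 (-1.31 and 1.16) and -2.45 for Hba-a2 (-1.02 and 1.43). Single barcodes held 922 of 1034 Hbb-bs UMIs in hashtag 3 and 325 of 560 in hashtag 2, and without the other-lineage barcodes none of these 5 collagen and globin genes was past the fold in both pairs. The chemokine gene Ccl4 differed by -3.29 (-1.15 and 2.13), at 35.1, 39.3, 78.2 and 8.77 CPM. Single barcodes held 105 of 138 Ccl4 UMIs in hashtag 3 and 74 of 101 in hashtag 2, while 3.74%, 3.68%, 4.88% and 3.27% of members had a UMI.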

How the results depend on the processing

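The counts of 18 genes higher and 5 lower moved under several settings. Without barcodes over 10000 UMIs they were 4 and 2. At a mean of 10 CPM or more they were 54 and 34, and at 100 CPM or more 4 and 1. At 2-fold they were 11 and 2, and with 1.5-fold between the nearest hashtags of the groups the lower count was 3. With Il1rl1 at 2 UMIs or more 12 genes were lower. Alternatives chosen after seeing the data gave 2 lower without other-lineage barcodes, 1 lower without the 3 leading barcodes of each gene, 88 and 65 for hashtag 1 to 3 alone, and 69 and 35 for 2 to 4 alone. The level and fold limits change the counts by their own construction; for the other settings the cause was not tested. Among the 23 genes called with all members, the mean log2 ratio turned in 15 cases; turns of other genes are not listed. Without other-lineage barcodes these were C1qa -0.56, C1qb -0.77, C1qc -0.51, Cd74 -0.15, H2-Eb1 -0.10, Lyz2 -0.10, Tyrobp -0.59, Cma1 0.24 and Mcpt4 1.62. Without members holding Il4, Il5 or Il13 they were Cma1 0.25, Csf2 0.40 and Mcpt4 1.63. Without barcodes over 10000 UMIs they were C1qc -0.042 and Tyrobp -0.032, and without the 3 leading barcodes Mcpt4 was 1.24. The ratios were taken in pairs, as hashtag 1 to 3 and 2 to 4, and no paired test was run on them. Each hashtag is 1 sample of unknown condition, so no replicate could be left out, and fewer than 100 UMIs a hashtag lie behind several named genes.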

Other observations

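The eosinophil chemokine receptor gene Ccr3 was at 89.1, 124, 119 and 47.7 CPM, low in hashtag 4 alone, with a UMI in 24%, 33.3%, 31.9% and 14% of members. The stromal chemokine gene Ccl21a had 778 of 779 UMIs of hashtag 3 and 93 of 96 of hashtag 2 in single barcodes, and the barcode of hashtag 2 was not among those removed.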
